A study of Homo sapiens with 12 samples.

Results

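The genes examined here are 9 components of the pathway by which cells show peptides on major histocompatibility complex (MHC) class I molecules, out of 27514 genes listed in the deposited expression table. They were chosen by name: the heavy chain genes HLA-B and HLA-C, the light chain gene B2M, the peptide loading genes TAP1, TAP2, TAPBP and ERAP1, and the regulators NLRC5 and IRF1. All 9 had a row. Expression was measured by RNA sequencing in IMR32, a human neuroblastoma cell line with amplified MYCN. The 4 groups of 3 samples had received a control siRNA (siCtrl; siCTR in the labels), an siRNA against MYCN (siMYCN; siMYCN_2), an siRNA against HAND2 (siHAND2; siHAND2_3), or siRNAs against both (the combined knockdown; siM2+siH2_3), in each case by Nucleofector electroporation followed by 72 h of culture. The names show 1 siRNA per target, so effects of an siRNA on other transcripts cannot be told apart from those of its target. MYCN and HAND2 encode transcription factors of the neuroblastoma regulatory circuit, and the design compares each knockdown and their combination with the control.

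A class I molecule is a heavy chain, such as the products of HLA-B and HLA-C, bound to the light chain beta-2 microglobulin (B2M) and to a short peptide. Peptides made by the proteasome are pumped into the endoplasmic reticulum by the TAP1-TAP2 transporter, trimmed by the aminopeptidase ERAP1, and loaded with the help of tapasin, the product of TAPBP. NLRC5 is a transactivator that acts at class I promoters through an assembled set of DNA-binding factors, and IRF1 is a transcription factor induced by interferon that acts at interferon-stimulated response elements. Neuroblastoma is known for low class I expression.

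Proximal promoters of these genes are shown because several carry elements through which NLRC5, IRF1 and NF-kB are known to act. The genes below also differ widely in level. RefSeq sequence of the GRCh38.p14 build was matched by symbol for 8 of the 9 genes, NLRC5 being the exception. Each line gives the 250 bases before the annotated start, 5′ to 3′ on the gene's strand. TAP1 and ERAP1 each have a second annotated start, and the first window is the outermost. The windows of TAP2 and ERAP1 were searched but are not printed. Capitals mark the core of the interferon-stimulated response element (GAAA, any 2 bases, GAAA), the NF-kB consensus, the CCAAT box (CCAAT) and the core of the X2 box, a site for CREB-family factors (TGACG), each on either strand.

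B2M, chr15:44711267-44711516, plus strand: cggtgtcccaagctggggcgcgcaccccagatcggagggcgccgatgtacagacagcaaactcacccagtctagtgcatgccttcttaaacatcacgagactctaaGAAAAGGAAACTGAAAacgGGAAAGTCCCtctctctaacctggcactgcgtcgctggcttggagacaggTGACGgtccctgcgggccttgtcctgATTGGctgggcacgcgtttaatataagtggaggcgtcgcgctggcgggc
TAPBP, chr6:33314079-33314328, minus strand: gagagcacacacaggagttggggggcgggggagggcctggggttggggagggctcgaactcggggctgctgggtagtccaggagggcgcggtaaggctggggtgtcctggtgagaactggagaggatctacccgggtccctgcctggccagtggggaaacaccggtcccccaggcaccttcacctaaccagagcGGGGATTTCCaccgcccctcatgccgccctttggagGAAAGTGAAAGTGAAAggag
TAP1, chr6:32853705-32853954, minus strand: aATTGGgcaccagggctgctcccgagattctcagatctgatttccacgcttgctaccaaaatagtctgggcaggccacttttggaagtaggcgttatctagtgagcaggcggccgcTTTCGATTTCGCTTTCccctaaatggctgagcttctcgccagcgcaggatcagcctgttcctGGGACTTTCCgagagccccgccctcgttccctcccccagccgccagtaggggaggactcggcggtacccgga
HLA-B, chr6:31357180-31357429, minus strand: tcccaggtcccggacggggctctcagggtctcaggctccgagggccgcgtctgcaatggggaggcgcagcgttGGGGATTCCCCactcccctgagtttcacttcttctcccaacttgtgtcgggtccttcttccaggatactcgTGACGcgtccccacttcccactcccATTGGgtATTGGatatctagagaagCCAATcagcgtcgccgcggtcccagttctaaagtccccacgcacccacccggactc
HLA-C, chr6:31272093-31272342, minus strand: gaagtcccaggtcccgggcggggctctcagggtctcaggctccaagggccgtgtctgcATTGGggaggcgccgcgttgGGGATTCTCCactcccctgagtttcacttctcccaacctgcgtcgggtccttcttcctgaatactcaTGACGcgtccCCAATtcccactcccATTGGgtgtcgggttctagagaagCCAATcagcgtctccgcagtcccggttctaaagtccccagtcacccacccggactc
IRF1, chr5:132490774-132491023, minus strand: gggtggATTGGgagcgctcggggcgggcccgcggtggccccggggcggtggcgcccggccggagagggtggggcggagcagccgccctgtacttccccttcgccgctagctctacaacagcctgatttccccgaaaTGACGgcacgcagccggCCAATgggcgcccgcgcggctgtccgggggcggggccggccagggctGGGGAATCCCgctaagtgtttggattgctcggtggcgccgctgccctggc

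Of all 35116 promoter windows of this length, 3.02% held the response element core, 9.96% the NF-kB consensus, 32.0% the CCAAT box and 21.2% the X2 core. Among the 8 matched genes, taking the first window of each, 4 held the response element core (B2M, TAP1, TAP2 and TAPBP). The NF-kB consensus was in 6 of the 8 windows, the CCAAT box in 5 and the X2 core in 5. In B2M, TAP1 and TAPBP the response element core was present in 2 overlapping copies, between 144 and 129 bases before the start in B2M and between 20 and 5 bases before it in TAPBP. The windows of HLA-B and HLA-C held no exact match to this core, but each held an NF-kB consensus, an X2 core and several CCAAT boxes. The first window of ERAP1 held no match to any motif searched, and its second held an NF-kB consensus and a CCAAT box. Of 3 further motifs searched, the MYC-type E-box CACGTG (6.34% of all windows) had no match in any of the 8 windows. The general E-box CANNTG (61.8% of all windows), the class of site that basic helix-loop-helix factors such as HAND2 bind, was matched once, in B2M, where it overlaps the X2 core. The interferon-gamma activated site TTCNNNGAA (6.57% of all windows) was matched once in the first windows, in IRF1, and once in the second window of TAP1. A match is a description of these letters only.

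Depth, estimated from the steps between low values, ranged from 31.6 to 64.2 M reads per sample. The deposited unit is CPM, the reads of a gene scaled to the total of its library, and the share of reads in listed genes fell from 65.1% ± 0.74 (SD, n = 3) in siCtrl to 51.4% ± 7.04 in the combined knockdown, where samples 1, 2 and 3 stood at 58.4%, 51.4% and 44.3%. The median log2 change of all 12680 tested genes moved with it, from 0.01 with siMYCN to -0.14 with siHAND2 and -0.28 with the combined knockdown, so changes are also given below after rescaling each sample by its median ratio to the other samples. Tests were made with limma on log2(CPM + 1), a scale on which changes of low genes come out smaller than in CPM, and a gene is termed called at an adjusted p under 0.05 over all tested genes. The targeted genes followed the labels: MYCN averaged 1009 CPM in siCtrl, 682 with siMYCN and 482 with the combined knockdown, and HAND2 averaged 239 CPM in siCtrl, 62.3 with siHAND2 and 73.5 with the combined knockdown. MYCN with siHAND2 averaged 849 CPM, with all 3 samples below all controls (log2 change -0.25, limma adjusted p = 0.086, and -0.09 after rescaling, where they overlapped). HAND2 itself was higher with siMYCN, at 326 CPM (log2 change 0.44, limma adjusted p = 0.0062). Both lie opposite an antisense gene (MYCNOS and HAND2-AS1), and whether the counting used strand is not stated. Of 8 noradrenergic neuroblastoma markers, 7 averaged at least 1 CPM (TH did not). None of 7 leukocyte markers reached a mean of 1 CPM, and their summed level lay between 0.441 and 0.985 CPM per sample. Nothing in the labels says that the 3 samples of a group were separate cultures, so the p-values below measure the spread between these samples, which may be technical.

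The levels of the 9 genes spanned several orders of magnitude. Per kilobase of canonical transcript, B2M averaged 84.5 CPM per kb over the 12 samples, TAPBP 3.06, ERAP1 1.45, IRF1 0.520 and NLRC5 0.236. HLA-C averaged 0.147 CPM per kb, TAP2 0.0323, HLA-B 0.0171 and TAP1 0.00384. This order from B2M to NLRC5 held in all 12 samples, and NLRC5 stood above HLA-C in 10 of the 12. HLA-B and TAP1, at 4 reads or fewer in every sample, could not be ordered at this depth. In all, 5 of the 9 genes reached a mean of 1 CPM over the 12 samples and were tested, and HLA-B, HLA-C, TAP1 and TAP2 did not.

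**Figure D1:**
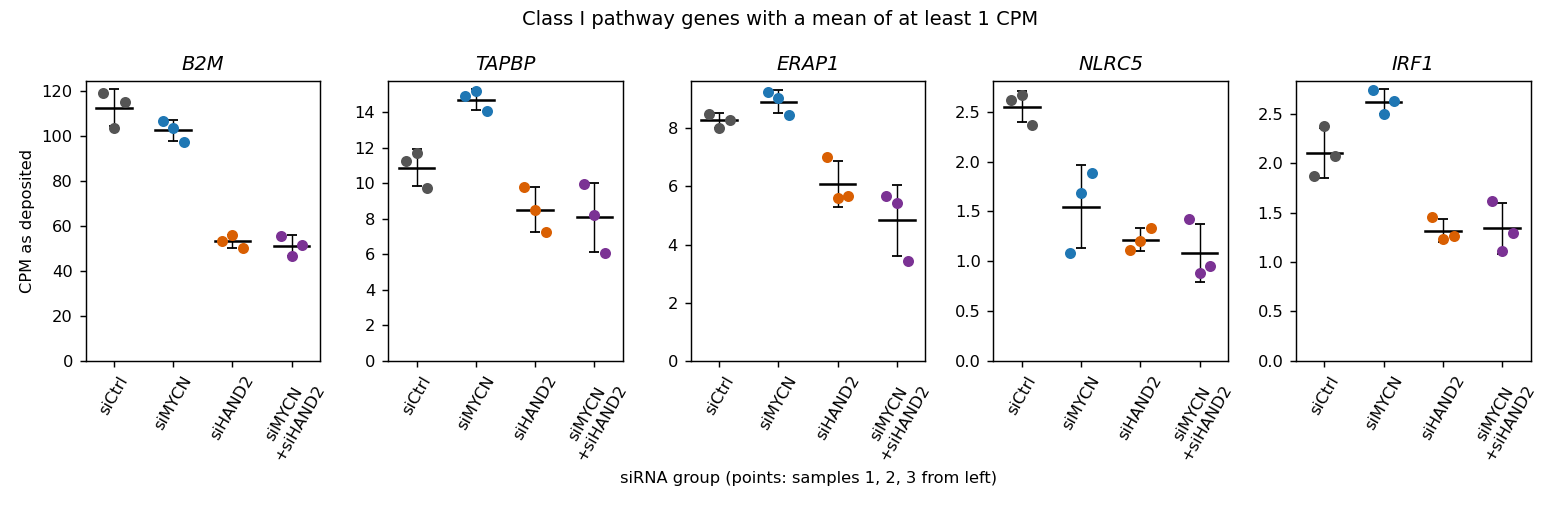
CPM as deposited (y axis, linear, from 0) of the 5 class I pathway genes with a mean of at least 1 CPM, by siRNA group (x axis). Points are the 3 samples of a group, horizontal bars the mean and error bars the SD; B2M lies between 46.6 and 55.8 CPM in the 6 samples that received the HAND2 siRNA and between 97.2 and 119 CPM in the other 6.

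B2M (chr15:45003685-45010358, plus strand, hg19), the light chain shared by class I molecules, was lower in every sample that received the HAND2 siRNA. It stood at 119, 103 and 115 CPM in the siCtrl samples and at 106, 103 and 97.2 CPM with siMYCN. It stood at 53.0, 55.8 and 50.2 CPM with siHAND2 and at 55.6, 46.6 and 51.3 CPM with the combined knockdown. The samples with and without the HAND2 siRNA did not overlap, and the siMYCN samples overlapped the controls. B2M thus averaged 112 ± 8.17 CPM (SD, n = 3) in siCtrl and 53.0 ± 2.78 CPM with siHAND2, or 47.2% of the control, and 45.5% of the control with the combined knockdown. On the log2 scale it fell by 1.07 with siHAND2 (SE 0.11, limma adjusted p = 2.6e-08) and by 1.12 with the combined knockdown (SE 0.11, limma adjusted p = 2.1e-09). With siMYCN the log2 change was -0.13 (95% interval -0.36 to 0.09, limma adjusted p = 0.38). Of all tested genes, 1.45% had a lower log2 change than B2M with siHAND2, and 9.65% with the combined knockdown. After rescaling, the log2 changes were -0.91 and -0.77, both with limma adjusted p under 0.05 (8.2e-07 and 1.6e-06). In bulk RNA of this kind, fewer cells expressing a gene and less of its RNA per cell cannot be told apart.

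TAPBP (chr6:33267472-33282165, minus strand), which encodes tapasin, the factor that holds the heavy chain at the peptide transporter, rose with siMYCN. Its samples stood at 11.2, 11.7 and 9.72 CPM in siCtrl and at 14.9, 15.2 and 14.0 CPM with siMYCN. They stood at 9.78, 8.50 and 7.24 CPM with siHAND2 and at 9.96, 8.19 and 6.09 CPM with the combined knockdown. The 3 siMYCN samples were the highest of the 12, while sample 1 of each HAND2 siRNA group lay just above the lowest control. The log2 rise with siMYCN was 0.41 (SE 0.13, limma adjusted p = 0.021). It was also called by limma after rescaling (0.41, adjusted p = 0.0019) and with the replicate number as a block (adjusted p = 0.0033). Scaled to the sum over listed genes it was 0.46 (limma adjusted p = 0.0010). The rise was not called without siCtrl sample 3 (adjusted p = 0.11), siMYCN sample 1 (0.058) or siMYCN sample 2 (0.070), nor with no filter on low genes (0.15). With siHAND2 the log2 change was -0.33 (SE 0.13, limma adjusted p = 0.052), a value that came under the threshold with the replicate number as a block (0.014). With the combined knockdown TAPBP fell by 0.41 on the log2 scale (limma adjusted p = 0.0098), but the log2 change was -0.08 after rescaling (adjusted p = 0.42) and the call was also lost without combined sample 3 (adjusted p = 0.074) and with no filter (0.082).

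ERAP1 (chr5:96096514-96149849, minus strand), the aminopeptidase that trims peptides to the length class I molecules accept, was lower in both groups that received the HAND2 siRNA. It stood at 8.51, 8.01 and 8.29 CPM in siCtrl and at 9.26, 9.05 and 8.47 CPM with siMYCN. It stood at 7.00, 5.59 and 5.67 CPM with siHAND2 and at 5.66, 5.41 and 3.42 CPM with the combined knockdown. Every sample with the HAND2 siRNA lay below every sample without it, and combined sample 3, the one with the lowest share of reads in listed genes, was the lowest of all. ERAP1 fell by 0.39 on the log2 scale with siHAND2 (SE 0.13, limma adjusted p = 0.018) and by 0.69 with the combined knockdown (SE 0.13, limma adjusted p = 5.3e-05). After rescaling these log2 changes were -0.25 (adjusted p = 0.039) and -0.39 (adjusted p = 0.0021). The siHAND2 call was lost without siCtrl sample 1 (adjusted p = 0.056), siHAND2 sample 2 (0.078) or siHAND2 sample 3 (0.063), and with no filter on low genes (0.12). With siMYCN the log2 change was 0.10 (95% interval -0.17 to 0.37). ERAP1 overlaps CAST on the other strand, so reads of the 2 genes could be mixed if strand was not used.

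NLRC5 (chr16:57023397-57117437, plus strand), the class I transactivator, was lower in all 3 knockdown groups. It stood at 2.62, 2.67 and 2.37 CPM in siCtrl, 1.08, 1.68 and 1.88 CPM with siMYCN, 1.11, 1.21 and 1.33 CPM with siHAND2, and 1.42, 0.881 and 0.951 CPM with the combined knockdown. No knockdown sample reached the lowest control, and the 3 knockdown groups overlapped one another. Mean levels were 60.7%, 47.6% and 42.5% of the control in that order, resting on 34 to 136 estimated reads per sample. The log2 falls were 0.49 with siMYCN (SE 0.14, limma adjusted p = 0.0064), 0.68 with siHAND2 (adjusted p = 2.3e-04) and 0.78 with the combined knockdown (adjusted p = 1.7e-05). All 3 were called after rescaling as well, at log2 changes of -0.47, -0.57 and -0.57. The siMYCN call was lost without siMYCN sample 1 (adjusted p = 0.070).

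IRF1 (chr5:131817301-131826466, minus strand), an interferon-induced activator of class I and immunoproteasome genes, was low throughout and lower with the HAND2 siRNA. It stood at 1.87, 2.37 and 2.07 CPM in siCtrl, 2.74, 2.49 and 2.64 CPM with siMYCN, 1.46, 1.24 and 1.26 CPM with siHAND2, and 1.62, 1.11 and 1.29 CPM with the combined knockdown. All 3 siMYCN samples lay above all controls, and all 6 samples with the HAND2 siRNA lay below them. IRF1 fell by 0.42 on the log2 scale with siHAND2 (SE 0.12, limma adjusted p = 0.0068) and by 0.41 with the combined knockdown (adjusted p = 0.0045). The first was called after rescaling (-0.32, adjusted p = 0.019) and the second was not (-0.19, adjusted p = 0.11). The log2 change with siMYCN was 0.23 (95% interval -0.02 to 0.47, limma adjusted p = 0.16), and scaling to the sum over listed genes brought it to 0.26 with an adjusted p of 0.048.

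**Figure D2:**
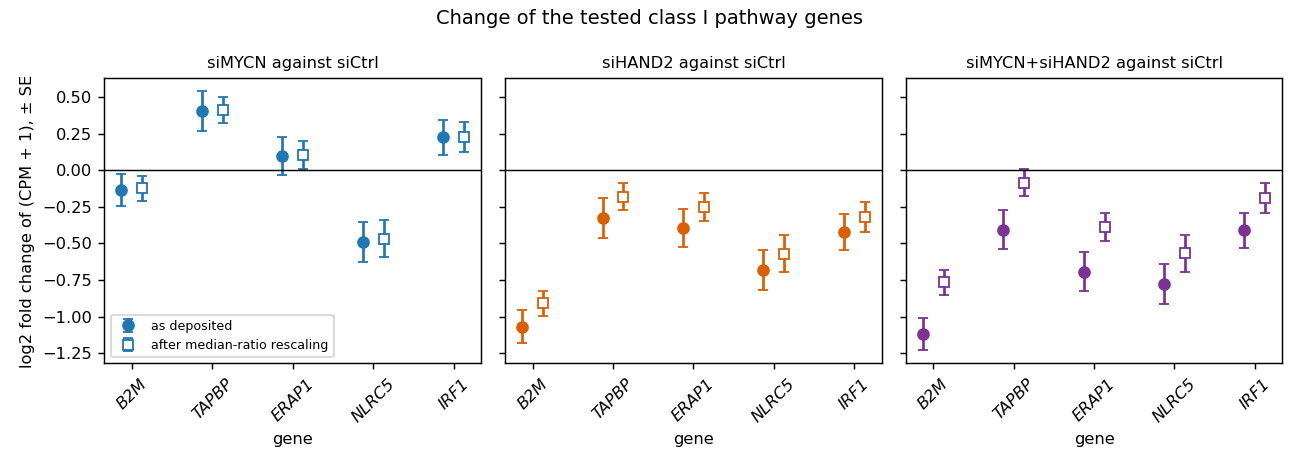
Log2 fold change of (CPM + 1) against siCtrl (y axis, linear in log2) for the 5 tested genes (x axis), in 1 panel per knockdown; bars are ± the standard error of the limma fit. Filled circles are values as deposited and open squares values after median-ratio rescaling, which moves every gene up with siHAND2 and the combined knockdown and brings TAPBP to -0.08 with the combined knockdown.

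By comparison, siMYCN gave 1 of the 5 tested genes higher (TAPBP) and 1 lower (NLRC5). Of all tested genes 33.7% were called, 17.4% higher and 16.3% lower, and 47.9% after rescaling, 25.4% higher and 22.5% lower. When scaled to the sum over listed genes 48.5% were called, 30.1% higher and 18.4% lower. The same 2 genes were called after rescaling. With siHAND2 4 of the 5 were lower (B2M, NLRC5, IRF1 and ERAP1) and none higher, where 42.7% of all tested genes were called, 12.3% higher and 30.4% lower. After rescaling the same 4 were lower, against 50.8% of all genes called, 25.9% higher and 24.9% lower. The combined knockdown had all 5 lower, where 67.4% of all tested genes were called, 17.4% higher and 50.1% lower. After rescaling 3 of the 5 (B2M, NLRC5 and ERAP1) were lower, against 70.7% of all genes called, 37.7% higher and 33% lower. The median log2 change of the 5 was 0.10, -0.42 and -0.69 for the 3 knockdowns, beside 0.01, -0.14 and -0.28 for all tested genes, and after rescaling 0.11, -0.32 and -0.39 beside 0.01, 0.01 and 0.04. These comparisons share the siCtrl samples.

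The knockdown groups were also compared with each other. Against siMYCN alone, the combined knockdown had B2M lower by 0.99, TAPBP by 0.81, ERAP1 by 0.79 and IRF1 by 0.63 on the log2 scale, with limma adjusted p of 9.6e-05 or less. NLRC5 was not called in this comparison (-0.29, adjusted p = 0.071). The 4 calls stand beside 58.9% of all tested genes called, 8.92% higher and 50% lower, and the 4 genes were also called after rescaling (56.7% of all genes called, 30% higher and 26.6% lower), at -0.64, -0.50, -0.49 and -0.41. Set directly against siHAND2, the siMYCN samples had the same 4 genes higher, B2M by 0.94, TAPBP by 0.73, IRF1 by 0.65 and ERAP1 by 0.49 (limma adjusted p between 2.8e-07 and 0.0051). NLRC5 was again not called (0.19, adjusted p = 0.29). Here 35% of all tested genes were called, 26.1% higher and 8.98% lower, and 44.5% after rescaling, 22.4% higher and 22.2% lower, where the same 4 were called.

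Adding the MYCN siRNA to the HAND2 siRNA gave no called change in the 5 genes by limma, where 40.3% of all tested genes were called, 8.75% higher and 31.5% lower, and 49.7% after rescaling, 26.1% higher and 23.6% lower. The log2 differences between the combined knockdown and siHAND2 were -0.05 for B2M (95% interval -0.28 to 0.18), -0.08 for TAPBP (-0.36 to 0.20), -0.10 for NLRC5 (-0.38 to 0.18) and 0.01 for IRF1 (-0.24 to 0.26). The nearest to a call was ERAP1 at -0.30 (95% interval -0.57 to -0.03, limma adjusted p = 0.072), the 1 gene of the 5 with an unadjusted p under 0.05. It was called with the replicate number as a block (adjusted p = 0.034), and without combined sample 1 (0.018) or combined sample 2 (0.049), but its log2 difference was -0.14 after rescaling (adjusted p = 0.25) and -0.12 when scaled to the sum over listed genes (adjusted p = 0.32). limma's voom on estimated reads also called 0 of the 5. After rescaling, the differences of B2M, TAPBP and NLRC5 took the opposite sign (0.14, 0.10 and 0.0047), so no direction is given for them.

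The interaction, the combined change minus the sum of the single changes, was called for 0 of the 5 genes by limma or by voom on estimated reads, where 4.01% of all tested genes were called, 0.355% higher and 3.65% lower, and 6.14% after rescaling, 1.67% higher and 4.47% lower. On the log2 scale it was 0.08 for B2M, -0.21 for IRF1, -0.49 for TAPBP (SE 0.19, adjusted p = 0.15), -0.40 for ERAP1 (adjusted p = 0.22) and 0.40 for NLRC5 (adjusted p = 0.23). The last 3 had an unadjusted p under 0.05. After rescaling it was -0.31 for TAPBP (adjusted p = 0.16), -0.24 for ERAP1 (unadjusted p = 0.095), -0.10 for IRF1, 0.47 for NLRC5 (adjusted p = 0.13) and 0.27 for B2M (unadjusted p = 0.045, adjusted p = 0.19), and again none was called. TAPBP was higher with siMYCN alone and lower with the combined knockdown, and its interaction was called with the replicate number as a block (adjusted p = 0.040). Without combined sample 1 it was -0.63 (adjusted p = 0.015) and that of ERAP1 was -0.50 (adjusted p = 0.041), and the count over all genes rose from 508 to 4443. For NLRC5 the 2 single falls, 0.49 and 0.68, exceeded in sum the combined fall of 0.78.

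The 4 genes under 1 CPM are described by their reads, estimated from the CPM steps. HLA-B (chr6:31321643-31325023, minus strand), a class I heavy chain, had 13 reads in all 12 samples together. The single sample above the limit of 3 reads was siHAND2 sample 2, with 4. TAP1 (chr6:32812986-32821749, minus strand), a chain of the peptide transporter, had 6 reads in all, none of them in the siHAND2 samples and at most 2 in any sample. No fold is given for either gene, since 3 reads correspond to 0.0468 to 0.0949 CPM at these depths, which covers counting error only. TAP1 overlaps PSMB8-AS1, and HLA-B and HLA-C overlap the microRNA gene MIR6891, all on the other strand.

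HLA-C (chr6:31236526-31239914, minus strand), the other heavy chain gene, stood at 0.232, 0.252 and 0.310 CPM in siCtrl and at 0.371, 0.0745 and 0.212 CPM with siMYCN. It stood at 0.254, 0.207 and 0.287 CPM with siHAND2 and at 0.297, 0.156 and 0.0733 CPM with the combined knockdown, or 118 reads over the 12 samples. All groups overlapped, and no difference was detectable at this depth. The siHAND2 mean was 94.2% of siCtrl as deposited and 105.5% after rescaling, so it has no direction. Heavy chain genes are closely related copies and among the most polymorphic genes of the genome, and some HLA-C reads were not whole numbers. Reads shared between copies or carrying alleles unlike the reference can be lost or split, so the levels of HLA-B and HLA-C are uncertain. In percent of B2M CPM, HLA-B plus HLA-C made up 0.249 ± 0.047 (SD, n = 3) in siCtrl, 0.230 ± 0.15 with siMYCN, 0.560 ± 0.072 with siHAND2 and 0.390 ± 0.20 with the combined knockdown. The 3 siHAND2 ratios lay above all siCtrl ratios, at the smallest p that an exact two-sided permutation test of 3 against 3 samples can give (p = 0.1), and the other 2 groups overlapped the controls (exact permutation p = 0.8 and 0.4). The ratio depends on no scaling of the samples, and its denominator, B2M, is itself lower with siHAND2.

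TAP2 (chr6:32789610-32806601, minus strand), the partner of TAP1 in the transporter, had 10, 12 and 18 estimated reads in the siCtrl samples, 10, 9 and 5 with siMYCN and 10, 7 and 6 with siHAND2. It had 2, 0 and 1 in the combined knockdown samples, whose depth was 38.6 to 64.2 M reads. All 3 combined samples were below all 9 others, while the other 3 groups overlapped in reads. After rescaling for level, the siMYCN samples (0.109 to 0.239 CPM) lay below the siCtrl samples (0.249 to 0.289 CPM). The siHAND2 samples (0.151 to 0.314 CPM) overlapped both. Pooled over samples and depth, TAP2 stood at 7.17% of siCtrl with the combined knockdown (exact 95% interval 1.42 to 22.5%), 68.3% with siMYCN (39.4 to 116%) and 73.5% with siHAND2 (42.0 to 126%). These intervals cover counting error only. They were made for TAP2 alone among the genes under 1 CPM and were not among the planned tests. In a limma fit with no filter over all 27514 listed genes, the combined knockdown had a lower log2(CPM + 1) for TAP2 than siCtrl (adjusted p = 0.0014), siMYCN (adjusted p = 0.014) and siHAND2 (adjusted p = 0.015). In the same fit its interaction was -0.16 (adjusted p = 0.52). HLA-B (limma adjusted p = 0.91), HLA-C (0.48) and TAP1 were not called there in the combined knockdown against siCtrl. The share of all listed genes called in that fit is not reported here.

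**Figure D3:**
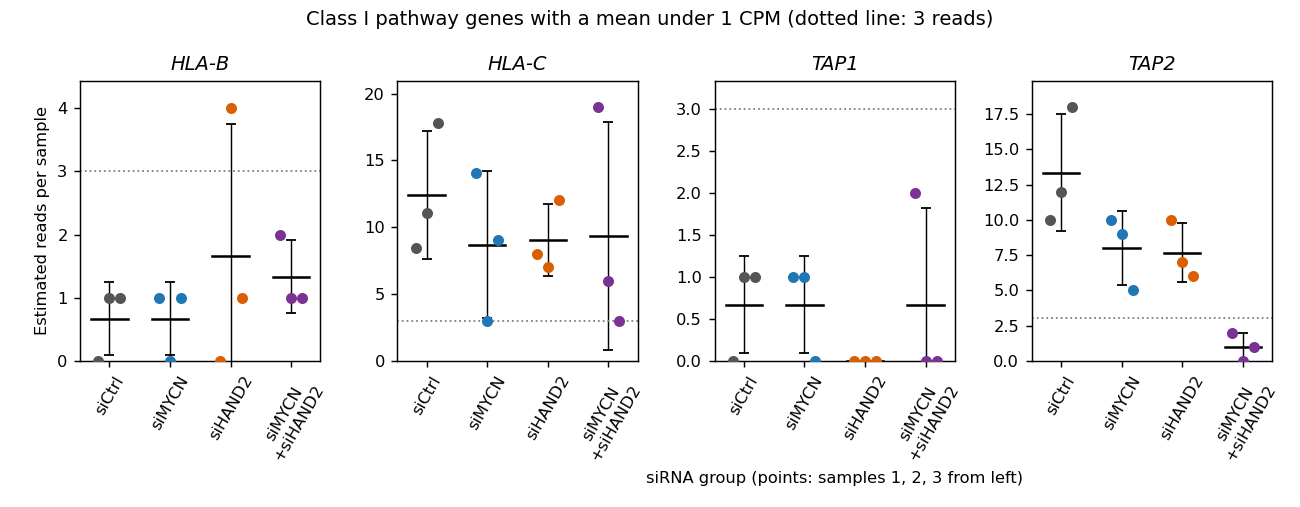
Estimated reads per sample (y axis, linear, from 0, with its own range in each panel) of the 4 genes with a mean under 1 CPM, by siRNA group (x axis). Points are samples, bars the mean with its SD, and the dotted line marks 3 reads; TAP2 is at 2 reads or fewer in the 3 combined knockdown samples and at 5 to 18 reads in the other 9.

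Other genes of the pathway were followed as lists. PSMB8 and PSMB9 of the immunoproteasome, the interferon-induced catalytic subunits whose genes adjoin TAP1, were listed at the value that stands for 0 reads in all 12 samples. Of 3 tested genes of this list, PSMB10, the remaining inducible subunit, fell with all 3 knockdowns (log2 -0.54 with siMYCN, -0.54 with siHAND2 and -0.76 combined). PSME1 and PSME2, which encode the PA28 activator, fell with siHAND2 (-0.45 each), and PSME2 also with the combined knockdown (-0.44). After rescaling the counts were 0 higher and 1, 3 and 1 lower. Scaled to the sum over listed genes, PSME1 (0.24) and PSME2 (0.21) were called higher with siMYCN and 1 gene lower. Of the constitutive catalytic subunits, 0, 1 and 3 of 3 (PSMB5, PSMB6 and PSMB7) were lower with siMYCN, siHAND2 and the combined knockdown, the 1 with siHAND2 being PSMB6 (-0.36). After rescaling, 1 was lower with each knockdown and 1 higher with siHAND2, and their median with the combined knockdown went from -0.33 to 0.02. As deposited, no constitutive subunit had an unadjusted p under 0.05 with siMYCN. Beside both lists, 16.3%, 30.4% and 50.1% of all tested genes were called lower with siMYCN, siHAND2 and the combined knockdown. After rescaling 22.5%, 24.9% and 33% were lower, and 25.9% were higher with siHAND2. Scaled to the sum over listed genes, 30.1% were higher and 18.4% lower with siMYCN.

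Among 8 tested genes of peptide loading and folding in the endoplasmic reticulum, limma called 0 with siMYCN (1 at an unadjusted p under 0.05, HSP90B1). In that comparison, where same-numbered samples deviated together, a limma fit with the replicate block called HSP90B1 lower (-0.32, adjusted p = 0.029). With siHAND2 limma called 3 lower, LNPEP (-0.60), HSP90B1 (-0.48) and PDIA3 (-0.38). PDIA3 is the disulfide isomerase of the peptide loading complex, and LNPEP encodes an aminopeptidase related to ERAP1. In the combined knockdown 6 were lower, led by HSP90B1 (-1.34), PDIA3 (-0.96) and LNPEP (-0.89), and the list's median log2 change was -0.64 beside -0.28 for all genes. After rescaling the counts were 1 lower with siMYCN, 3 lower and 1 higher with siHAND2, and 4 lower with the combined knockdown. Of all tested genes, 16.3%, 30.4% and 50.1% were called lower with siMYCN, siHAND2 and the combined knockdown. After rescaling 22.5%, 24.9% and 33% were lower, and 25.9% were higher with siHAND2. The list's median with siHAND2 was -0.08 and became 0.06 after rescaling. TAPBPL, a tapasin homologue, did not pass the test in any knockdown (log2 -0.01, -0.03 and -0.06), unlike TAPBP with siMYCN, though the difference between the 2 genes was not tested.

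Of the factors that act at class I promoters and their regulators, 17 of 19 were tested (CIITA and RELB were not). With siMYCN 1 was higher, CREB1 (0.31), and 5 were lower, led by NFKB1 (-0.73), EED (-0.52) and NFKB2 (-0.45). With siHAND2 9 were lower, led by NFKB1 (-0.82), EED (-0.78) and ATF1 (-0.73). The combined knockdown had 14 lower, led by NFKB1 (-1.64), EED (-1.24) and EZH2 (-1.06). NFKB1 encodes the p50 subunit of NF-kB, ATF1 is a CREB-family factor of the X2 site, and EED and EZH2 belong to the Polycomb repressive complex known to silence class I genes in tumours, so this list holds activators and repressors alike. NFKB1 stood at 11.1, 11.4 and 10.6 CPM in siCtrl, and at 4.05, 2.75 and 2.05 CPM with the combined knockdown. The NFKB1 samples of all 3 knockdowns lay below all controls, the single knockdowns between 5.12 and 6.61 CPM. After rescaling the list's counts were 2 higher and 6 lower with siMYCN, 2 and 7 with siHAND2, and 2 and 9 with the combined knockdown. The shares of all tested genes called lower were 16.3%, 30.4% and 50.1%, and 22.5%, 24.9% and 33% after rescaling. The list's median log2 change was -0.12, -0.32 and -0.58 in the 3 knockdowns, beside 0.01, -0.14 and -0.28 for all tested genes, and -0.11, -0.19 and -0.24 after rescaling, beside 0.01, 0.01 and 0.04.

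**Figure D4:**
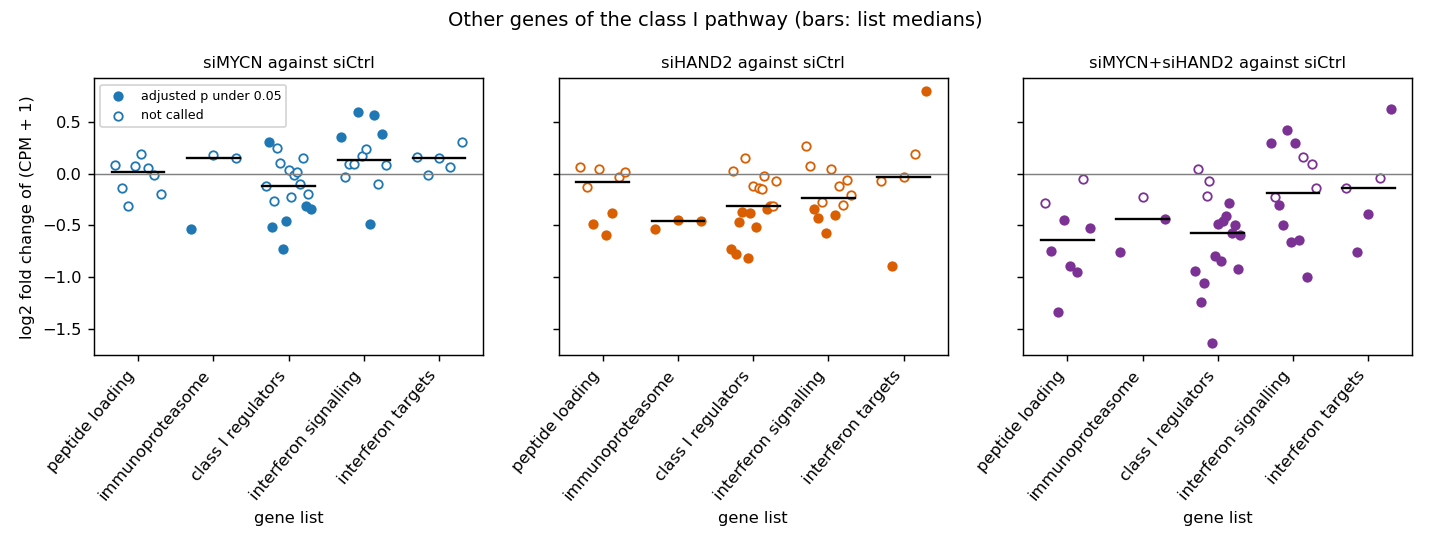
Log2 fold change of (CPM + 1) against siCtrl (y axis, linear in log2) of the tested genes in 5 lists of the pathway (x axis), in 1 panel per knockdown. Filled points have a limma adjusted p under 0.05, open points do not, and bars are list medians, which for the class I regulators are -0.12, -0.32 and -0.58.

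Interferon receptor and signalling genes moved in both directions, with 12 of 13 tested. With siMYCN 4 were higher, IRF9 (0.59), SOCS3 (0.57), STAT2 (0.38) and IFNAR1 (0.35), and 1 was lower, the phosphatase gene PTPN2 (-0.49). With siHAND2 4 were lower, JAK1 (-0.57), the interferon-gamma receptor chain IFNGR2 (-0.43), PTPN2 (-0.40) and IFNGR1 (-0.34), a share near the 30.4% of all tested genes called lower. In the combined knockdown 3 were higher, IRF9 (0.42), IFNAR1 (0.30) and JAK2 (0.29), and 5 were lower, among them JAK1 (-0.66), a kinase of the interferon receptors, and PTPN2 (-0.64). After rescaling the combined counts were 6 higher and 4 lower, those with siMYCN 5 and 1, and those with siHAND2 1 and 3. Of all tested genes, 17.4% were called higher and 16.3% lower with siMYCN, and 17.4% and 50.1% with the combined knockdown. After rescaling these shares were 25.4% and 22.5% with siMYCN, 25.9% and 24.9% with siHAND2, and 37.7% and 33% with the combined knockdown. The list's median log2 change was 0.14 with siMYCN, -0.24 with siHAND2 and -0.19 with the combined knockdown, and the last took the opposite sign after rescaling (0.14). Scaled to the sum over listed genes, 7 were higher and 1 lower with siMYCN, beside 30.1% and 18.4% of all tested genes.

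Only 5 of 24 interferon target genes averaged 1 CPM, and 4 of the 24 were listed at the value for 0 reads in every sample. Of these 5, limma called 0 with siMYCN (1 at an unadjusted p under 0.05). With siHAND2 ISG15 was higher (log2 0.80), from 0.743 ± 0.20 to 2.03 ± 0.21 CPM (SD, n = 3), and IFI44 lower (-0.89), from 55.0 ± 4.94 to 29.2 ± 2.32 CPM. The combined knockdown had ISG15 higher (0.63) and IFI44 (-0.76) and IFI6 (-0.39) lower. The targets thus showed no common direction. After rescaling, the counts were 0 with siMYCN, 2 higher and 1 lower with siHAND2, and 1 of each with the combined knockdown. Of all tested genes, 12.3% were called higher and 30.4% lower with siHAND2, and 17.4% and 50.1% with the combined knockdown. After rescaling these shares were 25.9% and 24.9%, and 37.7% and 33%. The median log2 change of the targets went from -0.04 to 0.06 with siHAND2 and from -0.14 to 0.09 with the combined knockdown. Of 9 nonclassical class I and class I-like genes, only FCGRT, the neonatal Fc receptor that also pairs with B2M, was tested. It was lower with the combined knockdown (-0.40, limma adjusted p = 0.012), a call not made after rescaling (-0.20). Of 9 class II genes none reached 1 CPM, and their summed level lay between 0.397 and 1.17 CPM per sample.

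Along chromosome 6, from HLA-F to TAPBP (chr6:29691117-33282165, hg19), 74 of 198 listed genes averaged at least 1 CPM, or 37.4%, beside 46.1% of all listed genes. TAPBP was among them, and HLA-B, HLA-C, TAP1 and TAP2 were not. Of 4 stromal, endothelial and Schwann cell markers that were tested out of 11, COL1A1 (-1.89) and PDGFRB (-0.40) were lower and CDH5 (0.51) higher with siHAND2. Of all tested genes 12.3% were higher and 30.4% lower there. With the combined knockdown 2 of the 4 markers were called higher and 2 lower, beside 17.4% and 50.1% of all tested genes. Both sets of counts were the same after rescaling, where 25.9% and 24.9% of all genes were called with siHAND2, and 37.7% and 33% with the combined knockdown. The summed level of the 11 was 17.3 to 20.3 CPM in siCtrl, 19.2 to 19.5 with siMYCN, 10.7 to 11.2 with siHAND2 and 6.44 to 9.84 with the combined knockdown, a fall alongside that of B2M. Its part in the B2M result was not tested. The leukocyte markers summed to 0.441 to 0.942 CPM in siCtrl, 0.670 to 0.871 with siMYCN and 0.539 to 0.744 with siHAND2. With the combined knockdown they summed to 0.903 to 0.985 CPM, and each knockdown group overlapped siCtrl. PTPRC, their defining marker, was listed at the value for 0 reads in all 3 siHAND2 samples.

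The genes most like B2M over the 12 samples, by Pearson correlation of log2(CPM + 1) among 10192 genes with a mean of at least 5 CPM, were ITGB1BP1 (r = 0.993), RPL39L (r = 0.991) and C9orf3 (r = 0.989). Those most like IRF1 were TMEM108 (r = 0.962), PDE5A (r = 0.962) and GFRA2 (r = 0.959). The samples fall into the 4 siRNA groups and share their scaling, so these values are a description with no test. HLA-B was too low for such a comparison.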

How the data were processed

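RNA from 12 samples was sequenced by the submitters. The authors deposited a table of CPM for 27514 genes. Per the submitters' processing notes, STAR 2.5.1 and Partek were used with hg19; the counting settings, strand use, annotation and filters are not given in the sources used here. A constant of 0.0001 stands in for 0 in every deposited CPM value. Listed genes hold part of the reads only. The step between low CPM values was taken as 1 read, which gave 89.0 to 90.6% of values below 20 reads whole within 0.05 reads, and 80.0 to 81.4% from 20 to 200 reads. This share is too low to treat the values as counts. Of 23648 symbols in GENCODE 44 lifted to GRCh37, 99.0% overlapped in place and strand.

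Tests used log2(CPM + 1). The 12680 genes that averaged 1 CPM or more entered 1 fit of all 4 groups with limma 3.58.1 (R 4.3.3, mean-variance trend, 8 residual degrees of freedom), two-sided, with Benjamini-Hochberg adjustment over all tested genes. A gene is called at an adjusted p under 0.05. Rescaling divided each sample by its median ratio over genes with a mean of at least 5 CPM. Alternatives were a pseudocount of 0.1, other filters, a fit of the compared groups alone, scaling to the sum over listed genes, the replicate number as a block, and each sample left out. Limma's voom on estimated reads, and rescaling with a combined sample left out, were added after seeing the data. The counting intervals, made for TAP2 alone, were not among the planned tests. The script was tested on simulated data. No pair of samples in a group agreed within sampling noise (chi-square per gene at least 3.35).

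The titles number the samples 1 to 3. Same-numbered samples deviated together for siMYCN and siCtrl (correlations of 0.44, 0.15 and 0.31) and for siMYCN and siHAND2 (0.33, 0.14 and 0.32). This was taken as a sign of pairing. In the other comparisons the correlations ran from -0.19 to 0.42. The column names also carry running numbers that rise with the replicate number across all groups. Same-numbered samples of all groups may thus have been handled together, which the labels do not state. A fit with the replicate number as a block was run for every comparison, and the main p-values come from the fit without it.

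Named are the 9 members, the targeted genes, from each list the up to 3 largest called rises and falls (or all where there were 5 or fewer), and the 3 genes most like B2M and IRF1. Other genes named were picked after their values were seen. Members and lists were chosen with earlier results of these data known. Some genes that this rule covers, and other class I heavy chain genes, are not reported here. Gene positions are hg19, promoter windows GRCh38.p14.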

Additional observations from a re-analysis of the deposited data

How the results depend on the processing

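The calls of B2M and NLRC5 with siHAND2 and the combined knockdown held under every alternative run in which they were tested (NLRC5 is under the filter of 5 CPM). The number of the 5 genes called with siMYCN was 2, and 1 with no filter or with a mean of at least 5 CPM; scaling to the sum over listed genes gave 3 (IRF1 added), and leaving out 1 sample 0 to 2. With the combined knockdown 5 were called, and 3 with a mean of at least 5 CPM (where 3 are tested), with median-ratio rescaling, with scaling to the sum over listed genes, with rescaling and the replicate block, and with rescaling and any 1 combined sample left out (3 to 3). For the combined knockdown against siHAND2 the count of 0 became 1 with the replicate block, and 0 to 1 with a sample left out. With no filter, where all 9 genes are tested, TAP2 was called in this comparison and none of the 5 was. With no filter, the combined knockdown against siCtrl had TAP2 called and TAPBP not called. The interaction count of 0 became 1 with the replicate block, and 0 to 2 with a sample left out. The block moved no other count of these genes by over 1.5 times.

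Among the 5 tested genes, the log2 changes that reversed sign were in the combined knockdown against siHAND2. Under rescaling, with or without the replicate block, B2M was 0.14, TAPBP 0.10 and NLRC5 0.0047; scaled to the sum over listed genes they were 0.16, 0.11 and 0.014. With 1 sample left out, the values ran from -0.11 to 0.013 for B2M, from -0.23 to 0.086 for TAPBP and from -0.073 to 0.082 for IRF1. The ratio of HLA-B plus HLA-C to B2M, siMYCN minus siCtrl, was -0.019 percent and ran from -0.091 to 0.059 with a sample left out, the highest without siMYCN sample 2. The cause was not tested. The ratio of TAP1 to TAP2 could not be formed with reads at 0. Counting error limits all values of HLA-B, HLA-C, TAP1 and TAP2.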

Other observations

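The transcript LOC100294145 (chr6:32861953-32871536, plus strand, hg19) lies on chromosome 6 between TAP1 and TAPBP. TAP1 and the adjoining PSMB8 and PSMB9 were at or near 0 reads, while LOC100294145 was well expressed and higher with each knockdown. It was picked after its values were seen. It stood at 50.7, 50.2 and 54.4 CPM in siCtrl, 79.9, 80.9 and 76.9 CPM with siMYCN, 88.8, 89.4 and 86.3 CPM with siHAND2, and 128, 114 and 106 CPM with the combined knockdown. The 4 groups did not overlap. The log2 rises were 0.61, 0.76 and 1.14 (limma adjusted p = 1.1e-04, 3.4e-06 and 9.4e-10).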
